A study of Gossypium hirsutum with 63 samples.

Results

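Early nodulin-like proteins, plantacyanins, uclacyanins and other cupredoxins were examined in upland cotton (Gossypium hirsutum) across 7 genotypes and 3 tissues. Members were all genes whose description in the deposited expression table contains early nodulin-like, plantacyanin, cupredoxin or uclacyanin, which gave 88 of 80325 genes. Of these, 40 are described only as Cupredoxin superfamily protein, 34 as early nodulin-like proteins, 10 as plantacyanin and 4 as uclacyanin 1. The gene names place 43 members on the A subgenome and 44 on the D subgenome of this allotetraploid, and 1 on an unplaced scaffold. Sequences and coordinates of the members were not used here.

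Cupredoxins are small proteins that share a barrel fold, built in many of them around a copper ion that can carry an electron. Phytocyanins are the plant-specific branch, which holds plantacyanins, uclacyanins, stellacyanins and early nodulin-like proteins. Many are secreted, and many early nodulin-like proteins are tethered to the outer face of the plasma membrane by a glycosylphosphatidylinositol (GPI) anchor and lack residues needed to bind copper. In Arabidopsis, plantacyanin is known from the pistil and anther, where it acts on pollen tube guidance and anther opening, and a group of early nodulin-like proteins acts with the receptor kinase FERONIA in the ovule when the pollen tube arrives. Uclacyanins are known in Arabidopsis roots from the lignified Casparian strip. Plastocyanin, a cupredoxin of the thylakoid lumen, carries electrons to photosystem I.

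The genotypes were 4 inbred parents and 3 F1 hybrids grown in the field and sampled at squaring, the stage at which flower buds form. A (SJ48) was the mother of all hybrids, and B (Z98-15), C (851-2) and D (DT-8) were the fathers of H (high yield heterosis), M (medium) and L (low). Leaf, flower buds and ovule at 1 day post anthesis were taken from each genotype, with 3 replicate libraries per group, 21 per tissue and 63 in all. Leaves were pooled over plants and buds of mixed sizes were pooled, so each library is an average over several plants or organs. The labels name no treatment. Every hybrid shares parent A, so contrasts against A share its libraries. In such bulk samples fewer cells of a type and less RNA per cell cannot be told apart.

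Levels are FPKM, the authors' estimate of fragments scaled by transcript length and library size. All differences are on the log2(FPKM + 1) scale, where a change of a gene under 1 FPKM comes out too small. Read counts were not used, so counting error at low values is unknown. Total FPKM per library ran from 410556 to 477980. Leaf genes of photosynthesis, searched by description, summed to a median of 13097 FPKM in leaf, 944 in buds and 227 in ovule. A list of anther and pollen genes, found by such words in the description, ran from 548 to 3399 FPKM among flower bud libraries. Its median was 735 there against 798 in leaf, so by its median this list does not mark the flower bud libraries. The list fixed for ovule, seed coat and fibre was highest in leaf, with a median sum of 1123 FPKM against 581 in ovule, so this list does not mark the ovule libraries. Replicates 2 and 3 of L ovule stood apart from the other ovule libraries, with a median correlation to them of 0.812 and 0.800, while the other 19 ran from 0.911 to 0.924. All 3 ovule libraries of A and replicates 1 and 2 of B also had lower base quality in the study's sequencing statistics than the other ovule libraries. A term for base quality is therefore estimated only within B, from replicate 3 against replicates 1 and 2. Ovule contrasts with A that use this term carry the error of that estimate.

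Of the 88 members, 73 passed 0.5 FPKM in at least 1 library and were tested. Within tissues 55 passed in leaf, 68 in buds and 57 in ovule. The 15 that never passed stayed at or below 0.485 FPKM, and among them Gh_A13G0336 was listed at 0 in all 63 libraries. They were 9 of the 40 genes described only as cupredoxin, 2 of 34 early nodulin-like, 2 of 10 plantacyanin and 2 of 4 uclacyanin genes. Members were grouped by GO term, each in the first group that applied. The order was thylakoid lumen, oxidoreductases that oxidize metal ions, anchored to the membrane, and electron carriers. These groups held 2, 13, 62 and 9 members, and 2 members had none of these terms. A term for anchoring to the membrane was given to 66 members, some of them in an earlier group. A term for copper ion binding was given to 19 members, of which 4 were early nodulin-like.

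By summed level, the family was highest in leaf. The summed FPKM of the 88 members had a lowest, median and highest library of 353, 476 and 661 in leaf, 203, 244 and 319 in flower buds, and 234, 283 and 362 in ovule. A single leaf library lay below the highest ovule library, and the bud and leaf ranges did not overlap. A pair of thylakoid genes, Gh_A05G1564 and Gh_D05G1742, summed to a median of 167 FPKM in leaf, 6.44 in buds and 0.152 in ovule. Without that pair the cupredoxins had a median sum of 188 FPKM in leaf, 129 in buds and 167 in ovule. Early nodulin-like genes summed to a median of 60.0 FPKM in leaf, 81.0 in buds and 82.1 in ovule, plantacyanins to 52.5, 18.8 and 23.6, and uclacyanins to 0.215, 1.2 and 0. In leaf 12 members averaged over 10 FPKM, in buds 5 and in ovule 7.

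The highest members in leaf were Gh_D05G1742 at 96.7 ± 51.5 FPKM (SD, n = 21), Gh_A05G1564 at 57.9 ± 21.1, Gh_D12G2171 at 32.3 ± 4.5, Gh_A09G1746 at 31.4 ± 4.1 and the plantacyanin Gh_A01G1490 at 25.2 ± 11.8. In flower buds they were Gh_A09G1746 at 34.3 ± 2.9 FPKM (SD, n = 21), the early nodulin-like protein 1 gene Gh_A13G1247 at 30.5 ± 5.8 and Gh_D12G2171 at 26.3 ± 2.4, followed by Gh_D05G2309 at 13.5 ± 2.6 and Gh_D09G1855 at 11.9 ± 1.1. In ovule they were Gh_A09G1746 at 65.6 ± 5.8 FPKM (SD, n = 21), Gh_A13G1247 at 35.2 ± 9.2, Gh_D12G2171 at 27.1 ± 5.7, Gh_D09G1855 at 22.7 ± 2.7 and Gh_D02G1474 at 19.6 ± 4.3. Gh_A09G1746 and Gh_D12G2171 were among the 5 highest in every tissue, and Gh_A13G1247 in buds and ovule.

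**Figure D1:**
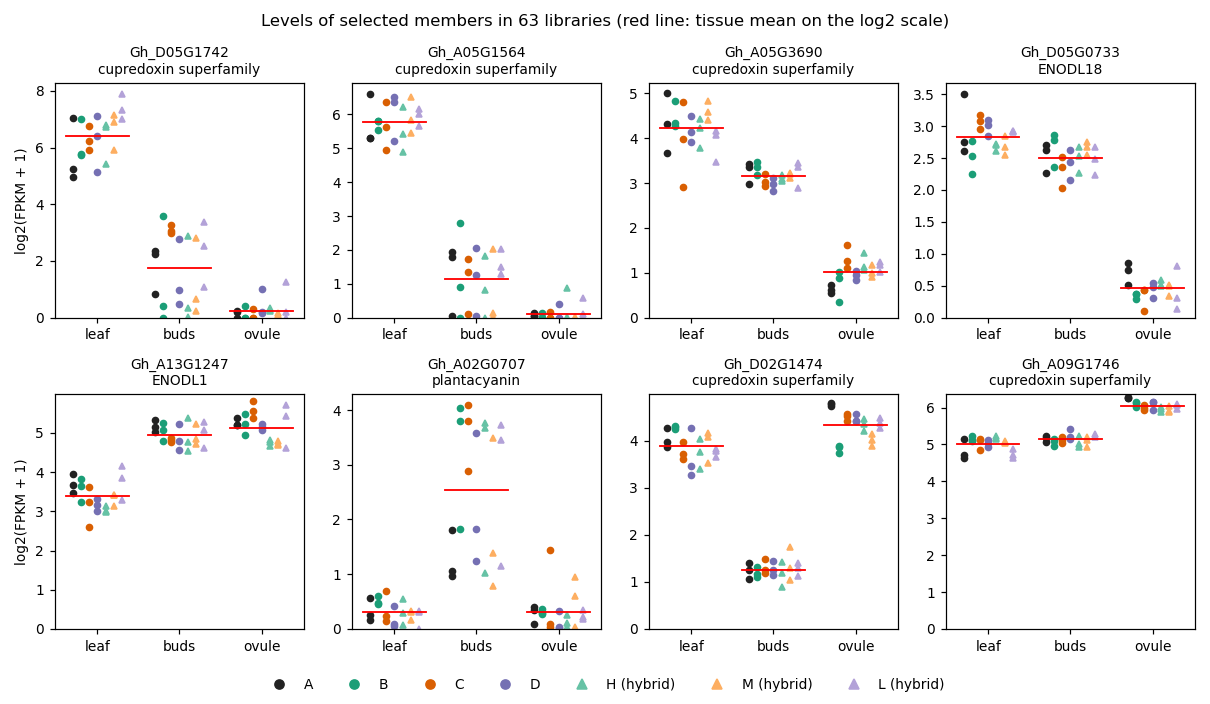
Levels of 8 members on log2(FPKM + 1) in leaf, flower buds and ovule. Each point is 1 library, coloured and shaped by genotype, and the red line is the tissue mean on the log2 scale. The thylakoid pair Gh_D05G1742 and Gh_A05G1564 is high in leaf, Gh_A02G0707 is high in flower buds, and Gh_D02G1474 is low in flower buds alone.

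The tissue comparison asked which members differ between leaf, flower buds and ovule when the 7 genotypes are averaged. In flower buds against leaf, 6 of 73 members were higher and 9 lower at an adjusted p under 0.05 with a log2 difference above 1 (limma, Benjamini-Hochberg over 68947 genes). Over all genes 8.09% were higher and 6.05% lower. In ovule against leaf 6 were higher and 9 lower, beside 9.84% and 9.08% of all genes. In ovule against flower buds 4 were higher and 11 lower, beside 3.58% and 7.13%. In all, 24 of 73 members (32.9%) were called in at least 1 of the 3 contrasts, against 25.5% of all genes.

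The median log2 difference of the members was 0.02 in buds against leaf, 0.001 in ovule against leaf and -0.05 in ovule against buds. Over all genes it was 0.14, 0.11 and -0.00037. When the libraries were rescaled to a shared median, the all-gene medians became 0.03, 0.00061 and -0.03, and the share of higher genes among all calls went from 57.2 to 45.3% in buds against leaf and from 52.0 to 37.7% in ovule against leaf. Under that rescaling the members called higher in ovule against leaf fell from 6 to 3, and those lower went from 9 to 10. Over all genes 4643 of 68947 were then higher and 7671 lower, from 6785 and 6258 before. With a pseudocount of 0.1 in place of 1, 16 members were higher and 17 lower in ovule against leaf. The share of all genes at that pseudocount was not taken, so these counts cannot be read as a trait of the members.

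Calls were also counted by class, and the difference between classes was not tested. The shares of all genes called higher and lower were 8.09% and 6.05% in flower buds against leaf, 9.84% and 9.08% in ovule against leaf, and 3.58% and 7.13% in ovule against flower buds. Among the 31 cupredoxins tested, 2 rose and 6 fell in flower buds against leaf, 4 rose and 7 fell in ovule against leaf, and 3 rose and 9 fell in ovule against flower buds, so that 19.4, 22.6 and 29.0% were lower. Among 32 early nodulin-like genes the numbers were 3 and 1, 2 and 1, and 0 and 1, which is 9.38, 6.25 and 0% higher. Among 8 plantacyanins they were 1 and 2, 0 and 1, and 1 and 1. Neither of the 2 uclacyanins tested was called.

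The largest differences were those of the thylakoid pair. Gh_D05G1742 had a lowest, median and highest library of 29.8, 104 and 236 FPKM in leaf, 0, 3.79 and 11.1 in flower buds, and 0, 0.137 and 1.41 in ovule. Its leaf libraries lay above every bud and ovule library. It fell by 4.65 ± 0.27 (SE) in flower buds against leaf (limma, adjusted p = 3.0e-20) and by 6.16 ± 0.27 in ovule against leaf (adjusted p = 4.1e-25). Gh_A05G1564 ran 28.7, 54.7 and 96.3 FPKM in leaf, 0, 1.46 and 5.88 in flower buds, and 0, 0.0131 and 0.833 in ovule. It fell by 4.66 ± 0.21 and 5.67 ± 0.21 in the same contrasts, and both copies were also lower in ovule than in flower buds, by log2 differences of -1.51 and -1.01. The thylakoid lumen is where plastocyanin works. The leaf photosynthesis list moved with the pair, with 103 of 194 genes lower and 2 higher in flower buds against leaf. Over all genes 6.05% were lower and 8.09% higher in that contrast.

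**Figure D2:**
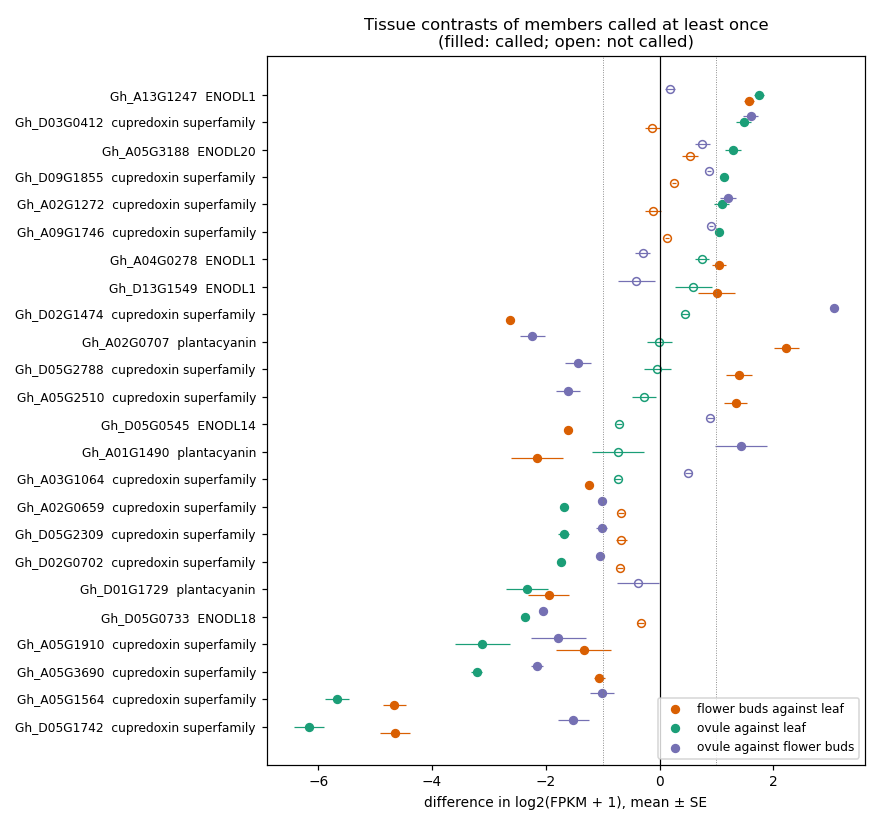
Log2 differences with SE of the 24 members called in at least 1 tissue contrast, with 1 colour per contrast. Filled points were called and open points were not, and the thylakoid pair lies furthest to the left, at -4.65 to -6.16 in the contrasts against leaf.

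Several membrane-anchored members also fell in the ovule. Gh_A05G3690, a cupredoxin, ran 6.52, 18.4 and 31.1 FPKM (lowest, median, highest) in leaf, 6.05, 8.11 and 10.1 in flower buds, and 0.270, 1.03 and 2.06 in ovule. Its ovule libraries lay below all libraries of both other tissues. Its log2 difference was -3.21 ± 0.10 in ovule against leaf and -2.16 ± 0.10 in ovule against flower buds, and it was also lower in buds than in leaf (-1.06 ± 0.10). Gh_D05G2309, its candidate partner on D05, ran 8.69, 22.4 and 37.8 FPKM in leaf, 9.60, 12.6 and 18.8 in flower buds, and 3.89, 5.88 and 10.2 in ovule. It fell by 1.69 ± 0.10 in ovule against leaf and by 1.02 ± 0.10 against flower buds, although its ovule range overlapped both. The pair Gh_A02G0659 and Gh_D02G0702 showed the same order at lower levels, with medians of 8.11 and 6.16 FPKM in leaf, 4.86 and 3.53 in flower buds and 1.80 and 1.06 in ovule. Their log2 differences were -1.68 and -1.74 in ovule against leaf and -1.01 and -1.04 in ovule against flower buds, the last of these just past the threshold.

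Among early nodulin-like genes, 3 with different descriptions stood out. Gh_A13G1247, an early nodulin-like protein 1, ran 5.02, 8.99 and 16.9 FPKM in leaf, 22.1, 28.5 and 40.3 in flower buds, and 23.5, 35.7 and 55.7 in ovule. Every bud and ovule library lay above every leaf library. It rose by 1.57 ± 0.09 in flower buds (adjusted p = 6.0e-21, limma) and 1.75 ± 0.09 in ovule (adjusted p = 6.1e-23), and ovule and buds differed by 0.18 ± 0.09, which did not pass. Gh_D05G0733, an early nodulin-like protein 18, ran 3.75, 6.20 and 10.4 FPKM in leaf, 3.10, 4.80 and 6.22 in flower buds, and 0.0739, 0.401 and 0.812 in ovule. All ovule libraries lay below all leaf and bud libraries, and its log2 difference was -2.37 ± 0.07 in ovule against leaf and -2.04 ± 0.07 against buds.

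Gh_D05G0545, an early nodulin-like protein 14, was the reverse of the first, with 12.4, 18.3 and 22.7 FPKM in leaf, 3.47, 5.14 and 7.51 in flower buds and 7.41, 10.5 and 14.4 in ovule. Its leaf and bud libraries did not overlap, and it fell by 1.61 ± 0.06 in flower buds against leaf. Gh_A05G3188, an early nodulin-like protein 20, ran 1.16, 2.18 and 4.74 FPKM in leaf, 1.42, 3.43 and 4.83 in flower buds and 3.38, 5.60 and 20.1 in ovule. It rose by 1.29 ± 0.14 in ovule against leaf, and its 4 highest ovule libraries, between 14.9 and 20.1 FPKM, came from B, C and M. Gh_A04G0278 and Gh_D13G1549, the other early nodulin-like protein 1 genes, were called higher in buds against leaf at 1.04 ± 0.13 and 1.00 ± 0.33, with bud medians of 1.80 and 5.07 FPKM against 0.366 and 2.15 in leaf. The first was at 0.96 with rescaled libraries, under the threshold, and the second lay at the threshold and was below 0.1 FPKM in 5 leaf libraries and 1 bud library.

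Oxidoreductase-type cupredoxins, those annotated to oxidize metal ions, were 4 of the 6 members higher in ovule against leaf. Of 12 tested, 4 were higher and 0 lower in that contrast, beside 9.84% and 9.08% of all genes, and 3 higher and 2 lower in ovule against flower buds, beside 3.58% and 7.13%. With rescaled libraries the 3 members still higher in ovule against leaf were Gh_D03G0412 of this group and the early nodulin-like genes Gh_A13G1247 and Gh_A05G3188, so 1 of the 4 was left. Gh_D02G1474 ran 8.69, 13.7 and 19.0 FPKM in leaf, 0.863, 1.40 and 2.34 in flower buds, and 12.4, 20.3 and 26.8 in ovule. Its bud libraries lay below every library of the other tissues, at a log2 difference of -2.62 ± 0.07 in flower buds against leaf and 3.07 ± 0.07 in ovule against flower buds (adjusted p = 4.5e-37, limma). Ovule and leaf differed by 0.45 ± 0.07, under the fold threshold.

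Gh_A02G1272 on A02 is a candidate partner of Gh_D02G1474 by annotation and chromosome number alone, with r = 0.49 over the 63 libraries on the log2 scale. Gh_A02G1272 was lower, with medians of 0.778 FPKM in leaf, 0.560 in buds and 2.70 in ovule. It rose in ovule by 1.09 ± 0.14 against leaf and 1.2 ± 0.14 against buds, the former 0.92 with rescaled libraries. Gh_D03G0412 ran 0.0862, 0.733 and 1.59 FPKM in leaf, 0.238, 0.558 and 1.95 in flower buds, and 0.654, 4.66 and 8.56 in ovule, with rises of 1.48 ± 0.13 and 1.60 ± 0.13. Gh_A09G1746, the most abundant member of bud and ovule, ran 23.6, 33.2 and 36.7 FPKM in leaf, 29.3, 34.7 and 41.5 in flower buds and 57.4, 64.5 and 76.7 in ovule. Its ovule libraries lay above all others, with log2 differences of 1.05 ± 0.03 against leaf and 0.91 ± 0.03 against buds, and only the first passed the fold threshold, though not with rescaled libraries. Its candidate partner Gh_D09G1855 rose by 1.13 ± 0.04 in ovule against leaf, from a median of 10.6 to 22.1 FPKM, and by 0.83 with rescaled libraries.

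Gh_D12G2171, also in this group, was called in no tissue contrast. It ran 21.5, 33.6 and 38.5 FPKM in leaf, 22, 26.3 and 31.5 in flower buds and 20.0, 25.5 and 43.2 in ovule, so the tissues overlapped broadly. Gh_A03G1064 ran 4.26, 4.94 and 9.36 FPKM in leaf and 1.03, 1.76 and 2.86 in flower buds, without overlap, and fell by 1.24 ± 0.06.

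Gh_A02G0707 was the 1 plantacyanin called higher in flower buds against leaf. It ran 0, 0.242 and 0.624 FPKM in leaf, 0.720, 6.38 and 16.0 in flower buds, and 0.0146, 0.190 and 1.73 in ovule. Every bud library lay above every leaf library, and it rose by 2.23 ± 0.22 in flower buds against leaf (adjusted p = 2.2e-12, limma) and was lower in ovule than in buds by the same size (-2.23 ± 0.22). Within buds it varied widely between replicates, for example 15.5, 2.53 and 12.9 FPKM in B and 10.3, 0.720 and 1.61 in M, and all 3 bud libraries of A lay between 0.943 and 2.49 FPKM.

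The plantacyanins Gh_A01G1490 and Gh_D01G1729 were the leaf-rich members of the class. Gh_A01G1490 ran 0, 27.6 and 38.1 FPKM in leaf and 0, 5.56 and 11 in flower buds, while its ovule libraries ran from below 0.1 to 27.6 FPKM with a median of 16.9. It fell by 2.16 ± 0.46 in buds against leaf and rose by 1.43 ± 0.46 in ovule against buds. With L ovule reduced to its first library the latter difference was 1.00, and the call was lost. It was also lost with 1 mean per genotype as the replicate (limma adjusted p = 0.073). Leaving out the 10 bud libraries above 1000 FPKM of the anther and pollen list lost it too. Gh_D01G1729 ran 10.5, 21 and 30.4 FPKM in leaf, 0, 6.67 and 11.8 in flower buds, and 0, 8.03 and 15.5 in ovule, with log2 differences of -1.95 ± 0.37 in buds and -2.34 ± 0.37 in ovule against leaf. Leaf alone had no library of this gene at or near 0.

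Values at or near 0 inside otherwise high groups were frequent among these members. A member was counted as switching when 1 library of a group of 3 was below 0.25 FPKM and another at or above 5. Of 37 members that reached 5 FPKM, 15 (40.5%) switched in at least 1 group, against 7520 of 45937 such genes in the whole table (16.4%). The plantacyanins Gh_A04G1079, Gh_A01G1490 and Gh_D01G1729 switched in 10, 9 and 8 of the 21 groups and the cupredoxin Gh_A05G1910 in 9. The cause of these values was not tested.

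Gh_A01G1490 was listed at 0, 31.0 and 25.0 FPKM in replicates 1 to 3 of B leaf, at 11, 0 and 0 in H flower buds and at 0.199, 27.6 and 25.0 in L ovule. Gh_A04G1079 was at 0.035, 45.0 and 0.061 FPKM in B flower buds and at 24.1, 0.23 and 27.6 in L leaf. Gh_D02G0751 was at 0.068, 22.1 and 24.5 FPKM in L ovule and at 0.174, 0 and 17.2 in M ovule. Replicates 2 and 3 of L ovule, high in Gh_A01G1490 and Gh_D02G0751, are the libraries that stood apart. None of these groups holds an intermediate value. The copies on A01 and D01 did not go to 0 together in leaf, where their sum ran 27.4, 48.3 and 66.5 FPKM, whereas it ran 0, 10.5 and 20.4 in flower buds and 0.0771, 22.4 and 38.3 in ovule.

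Gh_A05G1910, a cupredoxin, was at 0.195, 64.8 and 54.9 FPKM in D leaf and at 19.9, 19.2 and 19.8 in A leaf, while M leaf stayed between 0.103 and 0.170. It was at most 0.0934 FPKM in ovule, and fell there by 3.11 ± 0.49 against leaf and by 1.78 ± 0.49 against buds. In buds against leaf it fell by 1.33 ± 0.49 (limma, adjusted p = 0.015). In flower buds it was at or below 0.130 FPKM in all 3 M libraries.

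**Figure D3:**
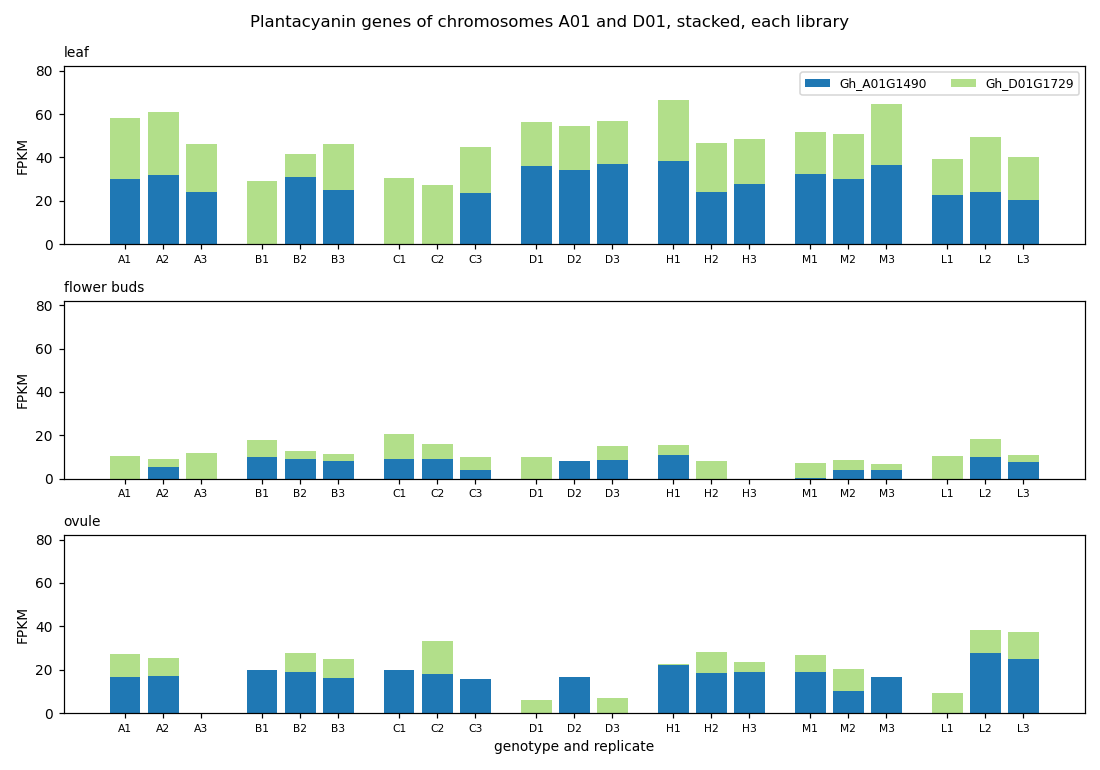
FPKM of the plantacyanin genes Gh_A01G1490 and Gh_D01G1729, stacked, in each of the 63 libraries, by genotype and replicate, with 1 panel per tissue. In leaf the sum stays between 27.4 and 66.5 FPKM although the A01 gene is at or near 0 in 3 libraries, and in flower buds and ovule 1 or both genes are at or near 0 in several libraries.

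Copies on matching A and D chromosomes were set side by side. Genes with the same description and an identical full set of GO terms, found once on the A and once on the D chromosome of a number, gave 27 candidate pairs, of which 24 had both copies above 0.5 FPKM in some library. Both copies were called in 4 pairs in buds against leaf, 4 in ovule against leaf and 5 in ovule against buds. Only 1 copy was called in 4, 5 and 4 pairs. Pairs were not formed over all genes, so these counts have no background. Of the 27 candidate pairs, 5 had r above 0.9 over the 63 libraries on the log2 scale. It was 0.96 for Gh_A05G1564 and Gh_D05G1742, 0.98 for Gh_A05G2510 and Gh_D05G2788 and 0.98 for Gh_A09G1746 and Gh_D09G1855. It was 0.95 for Gh_A05G3690 and Gh_D05G2309 and 0.94 for Gh_A02G0659 and Gh_D02G0702. The other pairs had a lower r, for example 0.095 for Gh_A12G1992 and Gh_D12G2171 and 0.149 for Gh_A01G1490 and Gh_D01G1729. The 63 points behind each r share tissues, and near-identical copies may share reads, so the split between copies is uncertain. Pairs were formed by annotation and chromosome number alone, so whether the genes of a pair are homoeologs was not tested. In the 09 pair the A copy held 76.0, 74.2 and 74.3% of the sum in leaf, buds and ovule.

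Differences among genotypes were few outside the ovule. The F-test over 7 genotypes, at an adjusted p under 0.05 (limma), passed 3 of 55 members in leaf (5.45%, against 6.02% of all genes), 1 of 68 in flower buds (1.47% against 3.3%) and 11 of 57 in ovule (19.3% against 19.8%). In ovule 7 passed with L reduced to its first library and 7 with a term for base quality. Leaving out 1 library at a time gave 5 to 13 in ovule, the lowest without A ovule replicate 1 and the highest without L ovule replicate 1. In leaf it gave 1 without B replicate 3 and 6 without A replicate 1.

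The leaf genes were Gh_A03G1064, Gh_D09G1855 and Gh_D05G0545. Gh_A03G1064 was at 4.34, 4.69 and 4.71 FPKM in H leaf, below A (6.20, 8.51 and 7.5) and B (9.36, 8.61 and 7.84) in every library. H differed from its mid-parent by -0.68 ± 0.10 (limma, adjusted p = 0.0053), short of the fold threshold. Gh_D09G1855 was lowest in L leaf, at 6.68, 7.32 and 7.74 FPKM, and highest in M at 11.9, 11 and 11.3. Gh_D05G0545 was lowest in B leaf at 14.5, 12.4 and 12.9 FPKM and highest in L at 22.7, 18.3 and 19.8. These ranges of genotype means were 0.80, 0.59 and 0.57 on the log2 scale, and the third did not pass with rescaled libraries (adjusted p = 0.083).

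Gh_D07G0323, an early nodulin-like protein 14, had the largest genotype difference. It was at 52.4, 45.5 and 50.6 FPKM in C ovule, and at 68.2, 22 and 54.5 in D flower buds. In leaf C was at 149, 16.6 and 0.774 FPKM and D at 11.9, 12.7 and 102. Over the 3 tissues, 13 of 18 libraries of C and D were above 10 FPKM, with a median of 19.3 and a lowest of 0.597. None of the 45 libraries of A, B, H, M and L was, with a highest of 4.01 and a median of 1.05. The 5 low libraries of C and D were C leaf replicate 3, C bud replicates 2 and 3, and D ovule replicates 1 and 3.

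In ovule it was higher in C than in A by 4.98 ± 0.66 (limma, adjusted p = 0.00026) and lower in M than in C by -5.11 ± 0.66 (adjusted p = 0.00025), calls made in those directions for 0.392 and 0.192% of all genes. M was at -2.62 ± 0.57 from its mid-parent (adjusted p = 0.038, with 0.0842% of all genes called lower), a call lost without any 1 of 15 of the 21 ovule libraries, with the replicate number as a block (adjusted p = 0.051) and with the base quality term (adjusted p = 0.27). With that term the C against A difference was 5.01 (limma adjusted p = 0.11). Both values carry the error of a term estimated within B alone. In flower buds D exceeded A by 4.54 ± 0.56 (adjusted p = 0.00013) and L was below D by -4.71 ± 0.56 (adjusted p = 0.00041), beside 0.326 and 0.0282% of all genes. Without the 10 bud libraries above 1000 FPKM of the anther and pollen list these were 3.52 and -3.80, with only replicate 2 of D and replicate 3 of L left. Neither M nor L, the hybrids fathered by C and D, had a library above 2.45 FPKM. In leaf the same contrasts did not pass, with L against D at -3.54 (adjusted p = 0.098). Its candidate partner Gh_A07G0267 reached 33.6 FPKM in D bud replicate 2, with a highest library of 2.28 in leaf and 0.698 in ovule.

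**Figure D4:**
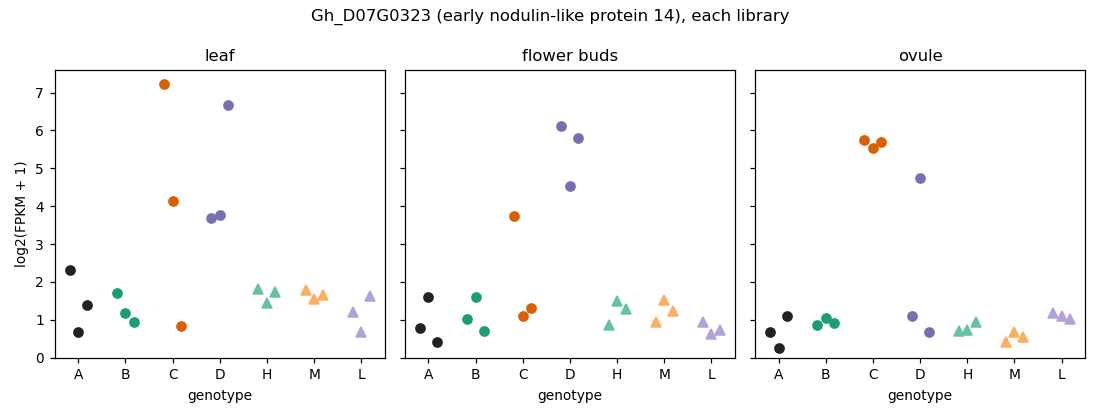
Level of Gh_D07G0323, an early nodulin-like protein 14 gene, on log2(FPKM + 1) in each library by genotype, with 1 panel per tissue. Libraries above 10 FPKM occur in C and D (13 of 18) and in none of the 45 libraries of A, B, H, M and L.

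Gh_D02G1474 had the smallest adjusted p of the ovule F-tests (9.2e-06, limma). It was at 26.7, 25.9 and 26.8 FPKM in A ovule and 12.4, 13.7 and 13.8 FPKM in B, and no library of another genotype reached those of A. B differed from A by -0.95 ± 0.08 (limma adjusted p = 1.2e-06), just under the fold threshold. All libraries of A and replicates 1 and 2 of B had the lower base quality, so in A genotype and base quality cannot be told apart. H was at 21, 17.4 and 19.5 FPKM, between its parents and 0.03 from the mid-parent (adjusted p = 0.97). M was at 13.8, 15.3 and 16.7 FPKM, below both A and C (20.5, 22 and 22.6), and -0.62 ± 0.07 from its mid-parent (adjusted p = 0.00011), also short of the fold threshold.

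The other ovule genes had ranges of genotype means from 0.33 for Gh_A09G1746, whose 3 A libraries (76.7, 76.3 and 75.2 FPKM) were the highest, to 2.00 for the plantacyanin Gh_A05G2044. Gh_D05G2309 was at 9.14, 10.2 and 8.58 FPKM in C ovule and 4.45, 3.89 and 4.58 in A. Gh_D12G2171 was at 28.6, 43.2 and 42.9 FPKM in L ovule, and all other ovule libraries lay between 20.0 and 28.6. The high values of the latter are those of the L libraries that stood apart.

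The triads, each hybrid with both its parents, were compared with each other and with the mid-parent on the log2 scale. At an adjusted p under 0.05 and a log2 difference above 1, at least 1 of 9 contrasts called 1 of 55 members in leaf, 1 of 68 in flower buds and 4 of 57 in ovule, against 2.33, 1.63 and 8.8% of all genes. In leaf the gene was Gh_A05G0491, an early nodulin-like protein 15, at 0.338, 0 and 0.360 FPKM in A and 0.699, 2.58 and 2.52 in B, a difference of 1.19 ± 0.29 (limma, adjusted p = 0.045), a contrast in which 0.32% of all genes were called higher. It was lost without any 1 of 16 of the 21 leaf libraries, with the replicate block (adjusted p = 0.052), with no filter, and with a filter of 1 FPKM in all 3 libraries of a group. Against the mid-parent, 0 members in leaf, 0 in buds and 3 in ovule were called, beside 0.415, 0.317 and 4.84% of all genes. At an unadjusted p under 0.05 with the same fold limma gave 2, 2 and 7 members. The share of all genes at the unadjusted p is not given here, so the latter counts stand without a background.

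In ovule 3 of the 4 genes were called in contrasts of L. Gh_A05G2044, a plantacyanin, was at 2.49, 2.71 and 4.12 FPKM in L ovule, 0.341, 0.578 and 0.532 in A and 0.0424, 0 and 0 in D. L was above both parents in every library, by 1.45 ± 0.40 over A (adjusted p = 0.024, limma) and 2.00 ± 0.40 over D (adjusted p = 0.0036), and by 1.73 ± 0.35 over the mid-parent (adjusted p = 0.0036). In these contrasts 2.56, 3.13 and 2.97% of all genes were called higher. With only the first L library the mid-parent difference was 1.51 (adjusted p = 0.33), and with the base quality term 1.33 (adjusted p = 0.068). Gh_D04G2021, another plantacyanin, was at 0, 3.08 and 2.40 FPKM in L ovule and at most 0.036 in every other ovule library. Its difference from the mid-parent was 1.26 ± 0.28 (adjusted p = 0.0054), and it rests on the L libraries that stood apart: it was lost without replicate 2 or 3 of L, and below the filter with the first L library alone. Its F-test was lost without any 1 of 20 of the 21 libraries.

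Gh_D03G0412 was at 5.13, 0.654 and 2.02 FPKM in L ovule and 4.90, 8.56 and 7.54 in D, a difference of -1.32 ± 0.45 (adjusted p = 0.046, limma), beside 2.06% of all genes lower. The call was lost without any 1 of 16 of the 21 ovule libraries. With the first L library alone it was -0.35 (adjusted p = 0.87). Reducing L to that library left 1 member called in the 9 ovule contrasts, Gh_D07G0323. Leaving out single libraries gave 2 members without L replicate 2 and 9 without L replicate 1, so the count in ovule moves with the L libraries.

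Flower bud libraries differed in their anther and pollen list, and the levels of a few members are set beside it. The summed FPKM of the anther and pollen list was highest in the first replicate in all 7 genotypes, for example 3399, 735 and 583 in A and 2660, 691 and 663 in C. The cupredoxin pair Gh_D05G2788 and Gh_A05G2510 rose in buds against leaf by 1.40 ± 0.23 and 1.34 ± 0.21 and was at most 0.0381 FPKM in ovule. Gh_D05G2788 was at 0, 7.42 and 3.98 FPKM in replicates 1 to 3 of A buds, 0.141, 8.77 and 5.05 in C, and 0.029, 0.014 and 6.08 in L. In these genotypes the libraries with the highest list sums were those near 0, including L replicates 1 and 2 at 1744 and 1505. In B, D and M the first replicate was also the lowest, at 0.0687, 0.0652 and 1.62 FPKM. H was different, at 0.0615, 0.0654 and 0.760 FPKM, with replicate 2 near 0 although its list sum was 588. D also held an exception. Its 3 bud libraries averaged 4.80 FPKM and no bud library exceeded 11.5 FPKM, so D replicate 3 was not near 0. The list sum of D replicate 3 was 1974, above those of L replicates 1 and 2.

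Gh_A05G2510 had the same order, at 0.171, 6.03 and 5.15 FPKM in A buds, 0.244, 7.14 and 5.23 in C, 0.146, 0.138 and 6.04 in L and 0.267, 0.377 and 2.22 in H. Gh_A13G1113, an early nodulin-like protein 6, was at 0.0310, 8.79 and 5.12 FPKM in C buds and at 0.0849, 0.0818 and 0.650 in H. The uclacyanin Gh_A13G2127 was at 4.79, 0.524 and 0.695 FPKM in A buds, 5.30, 0.455 and 0.946 in B and 0.0844, 0.542 and 3.82 in D. In C it was at 0.125 FPKM in replicate 1 and at most 0.535 in the others. Its first replicate was the highest in A, B and H and not in C, D, M and L. The part of the anther list, or of bud stage, in these values was not tested. Without the 10 bud libraries above 1000 FPKM of the list, Gh_D05G2788 was higher in buds than in leaf by 2.25 and Gh_A05G2510 by 2.06, while the counts in buds against leaf were 6 higher and 8 lower.

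**Figure D5:**
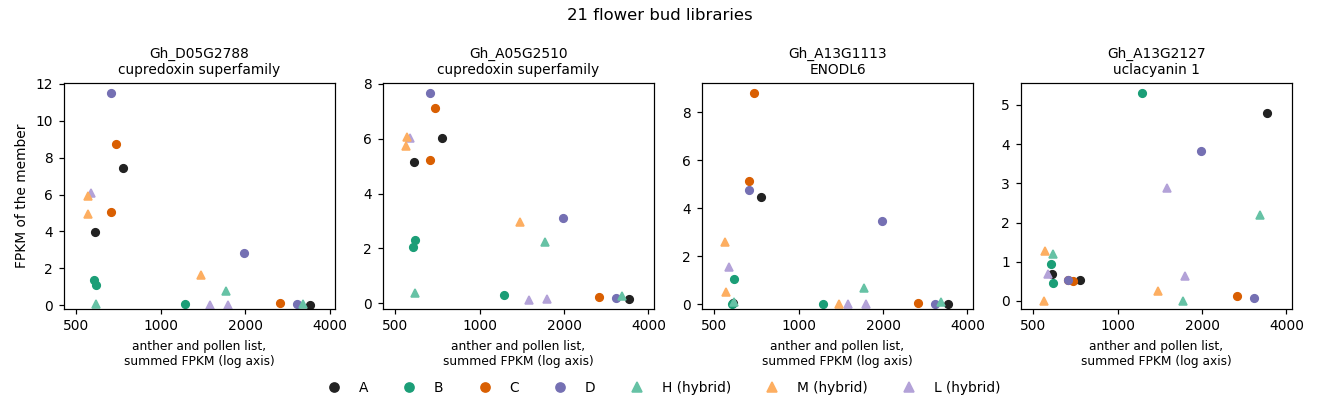
FPKM of 4 members in the 21 flower bud libraries against the summed FPKM of the anther and pollen list, on a log axis, each point 1 library by genotype. Gh_D05G2788 and Gh_A05G2510 reach 11.5 and 7.66 FPKM in libraries low in the list, and the uclacyanin Gh_A13G2127 reaches 5.30 FPKM in a library at 1221.

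Related gene groups, searched by description with the members left out, give the setting. Over all genes 8.09% were higher and 6.05% lower in buds against leaf. The shares were 9.84% and 9.08% in ovule against leaf, and 3.58% and 7.13% in ovule against buds. Differences between a list and these shares were not tested. GPI-anchored surface proteins, such as fasciclin-like arabinogalactan proteins and COBRA, were higher in buds against leaf for 20 of 121 genes and lower for 0, and in ovule against buds for 9 and 21. Laccases and ascorbate oxidases, larger enzymes of the same copper fold, were higher for 6 and lower for 29 of 67 in ovule against leaf, with a median of -0.68. Copper handling genes gave 3 higher and 6 lower of 36 in buds against leaf and 3 and 3 in ovule against leaf. FERONIA family receptor kinases gave 1 and 0 of 42 in buds against leaf, 2 and 1 in ovule against leaf and 0 and 0 in ovule against buds. Of 5 other phytocyanins tested, 1 was higher in ovule against leaf and against buds, and none was called in buds against leaf.

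The 49 members tested and called in no tissue contrast were mostly low. The highest tissue mean was at or below 1 FPKM in 30, between 1 and 10 in 17, and above 10 in 2, which were Gh_D12G2171 and Gh_D07G0323. Early nodulin-like protein 22 was low outside the ovule, where Gh_A06G0617 had a highest library of 1.95 FPKM against 0.156 in buds, and the early nodulin-like protein 7 genes Gh_A05G1084 and Gh_D05G1262 were listed at 0 in every leaf and ovule library and reached 2.02 and 1.85 in buds. Early nodulin-like protein 2, Gh_A03G1381, ran 0.230, 0.476 and 1.09 FPKM in leaf and 1.07, 1.5 and 2.33 in ovule. These lie at levels where the log2(FPKM + 1) scale gives small differences, and none was called. Some missed the fold threshold alone. In ovule against leaf Gh_A06G0617 rose by 0.69 (limma adjusted p = 1.7e-13) and Gh_A03G1381 by 0.73 (limma adjusted p = 8.9e-16).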

How the data were processed

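Libraries of 4 parents and 3 hybrids were made from leaf, flower buds and ovule. The authors trimmed reads with Cutadapt, aligned them with HISAT, merged StringTie assemblies over samples and estimated FPKM with StringTie and Ballgown. Their genome build is not named in the paper, labels or file headers used here. Deposited FPKM values were taken with no further scaling, and 21 further FPKM columns that belong to no sample were not used. Columns were matched to samples by title, and libraries were compared for duplicates (at most 0.00918% of values equal). Depth per gene is unknown, because the values are coverage estimates and not counts.

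Genes above 0.5 FPKM in at least 1 library of a fit were tested on log2(FPKM + 1) with limma 3.58.1 (R 4.3.3), using a variance trend and robust estimation. Tissue contrasts averaged the 7 genotypes in 1 model over 63 libraries, and genotype contrasts used 1 model per tissue. A call needs a Benjamini-Hochberg adjusted p under 0.05 over all genes tested and a log2 difference above 1 or below -1. The F-test over genotypes and the differences between tissues need the adjusted p alone. p-values measure the spread between these libraries.

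Members, gene lists and tests were chosen with earlier results of these data known, so lists are described by counts and medians. Named genes are the 5 highest per tissue, the 5 largest rises and falls per tissue contrast, the 5 largest genotype ranges past the F-test, and the called genes of the triads. Other genes were named after their values were seen, namely switching genes, copies of named genes, bud members and uncalled members. Alternatives were a pseudocount of 0.1, other filters, rescaling to a shared median, genotype means as the replicate, a replicate block, a base quality term, no trend, the study's thresholds, L ovule reduced to its first library and leaving out each library. One further alternative was chosen after seeing the data. It left out the 10 flower bud libraries above 1000 FPKM of the anther and pollen list. The limma steps were tested on simulated data. Tables and plots were made with Python 3.11.15, numpy 2.4.6, pandas 2.3.3 and matplotlib 3.10.9. None of the names matched the RefSeq gene table (0 of 88), so descriptions are those of the deposited table.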

Additional observations from a re-analysis of the deposited data

Results flagged for a closer look

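Differences between genotypes, or between a hybrid and its mid-parent, that themselves differed between tissues were tested as interaction terms in the model of all 63 libraries. Of 73 members, 9 (12.3%) had 12 such differences at an adjusted p under 0.05 (limma), against 17% of all genes with at least 1 of the 18 terms. The 12 became 8 without A ovule replicate 1 and 24 without L ovule replicate 1. The count also rose without the 10 bud libraries above 1000 FPKM of the anther and pollen list. The share of 17% is that of the full 63 libraries, and no share of all genes was taken with libraries left out. Each value is the difference of log2 differences, the first tissue minus the second.

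B against A in ovule minus leaf was -1.20 for Gh_D02G1474, -1.68 for the early nodulin-like protein 15 gene Gh_A05G0491, -0.63 for Gh_D09G1855 and -0.50 for Gh_A09G1746. For Gh_D02G1474 the same difference was -0.90 in ovule minus flower buds. That of Gh_A05G0491 rests on A ovule replicate 3, at 4.26 FPKM beside 0.0959 and 0.125 in the other 2, and was -0.93 (adjusted p = 0.28) without it. C against A in ovule minus flower buds was 1.44 for Gh_D05G2309, a call lost without any 1 of 37 of the 63 libraries (adjusted p up to 0.12). The bud term of Gh_D02G1474 was lost without any 1 of 10 libraries (adjusted p up to 0.092), and that of Gh_A09G1746 without any 1 of 5 (up to 0.11). All of these differences use A ovule, where genotype and base quality cannot be told apart. The base quality term was not run for them.

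Hybrid L against its mid-parent differed for 4 members. In ovule minus leaf the value was 1.89 for the plantacyanin Gh_A05G2044, 0.74 for Gh_D02G0702 and 0.61 for Gh_D12G2171. In ovule minus flower buds it was 1.98 for Gh_A05G2044 and -1.03 for the early nodulin-like protein 15 gene Gh_D05G0609, which was at 9.25, 1.98 and 6.34 FPKM in L ovule. With L ovule reduced to its first library none of these 5 passed, with 0.23 for Gh_D12G2171 (adjusted p = 0.99), -0.27 for Gh_D05G0609 (adjusted p = 1) and 0.75 for Gh_D02G0702 (adjusted p = 0.25). M against its mid-parent in ovule minus leaf was -0.62 for Gh_D09G1855, at 19.3, 20.8 and 20.1 FPKM in M ovule and 11.9, 11 and 11.3 in M leaf.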

How the results depend on the processing

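None of the 63 named single-gene results changed direction under the alternatives run for it. Over all genes, rescaling moved the share of higher genes among calls from 57.2 to 45.3% in buds against leaf and from 52.0 to 37.7% in ovule against leaf. Of 638 comparisons of these results with an alternative, 575 stayed on their side of the threshold and 63 no longer passed. Leaving out each library entered this tally only as the lowest and the highest value of each result. Of the 63 lowest values 13 no longer passed, and of the 63 highest 6. For each result the extreme further from the threshold could hardly fail, so 575 of 638 overstates how well the results held. The tally also does not show in how many of these fits a result was lost.

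With a pseudocount of 0.1 the members higher in buds against leaf went from 6 to 11, those higher and lower in ovule against leaf from 6 to 16 and 9 to 17, and those in ovule against buds from 4 to 8 and 11 to 20. Rescaling to a shared median left 3 of 6 higher in ovule against leaf. The 1 leaf triad gene was lost (0) with a filter of 1 FPKM in all 3 libraries of a group, with no filter and with the replicate block. At the thresholds of the study the triads gave 7, 5 and 8 members and the mid-parents 2, 2 and 7 in leaf, buds and ovule. Shares of all genes at the pseudocount of 0.1 and at these thresholds are not given here, so these counts stand without a background. L ovule reduced to its first library left 7 members past the ovule F-test, 1 in the ovule triads and 1 against the mid-parent. The base quality term left 7 past the ovule F-test. The 10 bud libraries above 1000 FPKM of the anther and pollen list were also left out. Then 2 members passed the bud F-test, 3 the bud triads and 1 the bud mid-parents, and the differences between tissues went from 12 to 50. Shares of all genes were not taken without these libraries, so these counts cannot be read as a trait of the members. The cause was not tested.

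Leaving out 1 library gave 1 to 6 members past the F-test in leaf and 5 to 13 in ovule, 0 to 3 in the leaf triads (3 without C replicate 3) and 2 to 9 in the ovule triads. It gave 0 to 1 in the bud mid-parents (1 without C replicate 1), 2 to 8 in the ovule mid-parents (8 without L replicate 1) and 8 to 24 differences between tissues (8 without A ovule replicate 1, 24 without L ovule replicate 1).

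In the model of 63 libraries the replicate block was genotype by replicate number, shared over tissues. Such a block is balanced over tissues, so it can change the error of a tissue difference but not its size. It changed no tissue count and gave 11 differences between tissues. It cannot take up variation that first replicates share in buds alone. Within a tissue the block was replicate number, and it gave 9 members in the ovule F-test and 2 in the ovule mid-parents. Same-numbered libraries of a genotype correlated by -0.084 to 0.084 across tissues. In buds, first replicates of different genotypes correlated by a median of 0.266, from -0.102 to 0.512, so shared numbers go with some shared variation there, but not every pair exceeded 0.1 and the numbers were not taken as pairs. Homoeologous copies may share reads, and without read counts the error of members below 1 FPKM is not known.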
